A study of Mus musculus with 48 samples.

Results

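Brown adipose tissue (BAT) of old mice kept on dietary restriction for almost their whole adult life was compared with BAT of mice of the same age that had always eaten freely. The comparison rests on 6 of the 48 libraries of the study, chosen by tissue, diet and age in the sample labels: 3 libraries of restricted mice (DR) and 3 of fully fed mice (AL), all labelled 26 months. All were females of the hybrid strain C3B6F1, housed 5 to a cage on the same chow. DR mice were given 60% of the food eaten by AL mice, once a day, from 12 weeks of age. The labels give the age at death of the old cohort as 27 months, after 24 months of restriction. Tissue was taken within 3 hours before the DR mice would have received their daily food. The labels describe the libraries as biological replicates and call the fat epididymal although the mice were female, so the dissected depot is uncertain. The BAT labels end by naming stranded, single-end sequencing of polyadenylated RNA, but a passage shared by all tissues describes paired-end reads of RNA depleted of ribosomal RNA, so the library type is taken from that last line and is not certain.

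Brown fat burns fatty acids and glucose to make heat. Noradrenaline from sympathetic nerves acts on beta-adrenergic receptors of the brown adipocyte, cAMP rises, stored triglyceride is broken down, and the proton channel UCP1 lets the mitochondrial proton gradient run off as heat. The deiodinase Dio2 makes active thyroid hormone inside the cell and is itself switched on by cAMP. Brown fat also makes fatty acids from glucose, secretes hormones, and holds vessels, nerves, matrix and immune cells beside the adipocytes.

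The AL libraries held 12314247 to 18013767 counts and the DR libraries 6075585 to 16256603, so that 3 counts corresponded to 0.17 to 0.49 CPM (the read count scaled to the size of its library) among these 6 libraries. Such floors cover counting error only. CPM values are not corrected for gene length, and they are given below in the order of replicates 1, 2 and 3. Markers of brown adipocytes, summed over 10 genes, came to 6062 to 8708 CPM in AL and 4179 to 4995 CPM in DR. Without Ucp1 the other 9 summed to 3967, 2908 and 3675 CPM in AL and to 3243, 3067 and 3116 CPM in DR, and these ranges overlapped. General adipocyte markers overlapped as well, at 8170 (8169.6) to 10070 (10069.7) CPM in AL and 8087 to 8673 CPM in DR. The interscapular genes Zic1 and Lhx8 were detected in all 6 libraries, while the visceral fat and mesothelial genes Wt1, Upk1b and Upk3b and the white fat gene Hoxc10 had no count in any of them, which at these depths allows at most the 0.17 to 0.49 CPM of 3 counts. Other members of the visceral and white fat list had counts: Lep, Nnat, Retn and Hoxc8 in all 6 libraries, Agt in 5 of them, and Msln, Tcf21 and Hoxc9 at no more than 4 counts in any library. Fewer brown adipocytes and less RNA per adipocyte cannot be told apart in whole tissue.

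The summed level of skeletal muscle markers was higher in each DR library than in any AL library. The 25 muscle markers summed to 622, 1014 and 81.1 CPM in the AL libraries and to 2511, 1534 and 6258 CPM in the DR libraries. Creatine kinase of muscle, Ckm, stood at 34.9, 57.7 and 0.059 CPM in AL and at 168, 104 and 404 CPM in DR. The groups did not overlap, and AL library 3 held almost no muscle RNA. With that spread Ckm did not pass the test (log2 fold change 2.88 ± 1.54 SE, edgeR adjusted p = 0.24), nor did any of the 25 markers, although 20 of them had all DR libraries above all AL libraries. Non-overlap in that direction was seen in 17.6% of the 13845 genes tested, and in the other direction in 15.4%. Other transcripts set single AL libraries apart. AL library 2 carried 28.9 CPM of T and NK cell markers against 2.17 to 9.13 CPM in the other libraries, and 244 CPM of B and plasma cell markers against 63.6 to 115 CPM. AL library 3 carried 34.8 CPM of liver transcripts against at most 2.44 CPM elsewhere, albumin (Alb) being the most abundant. Epithelial markers ran from 1.71 to 14 CPM in AL and from 10.3 to 20.7 CPM in DR. The comparison of DR with AL at 26 months was therefore also computed with a muscle score as a covariate and without each library in turn.

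**Figure D1:**
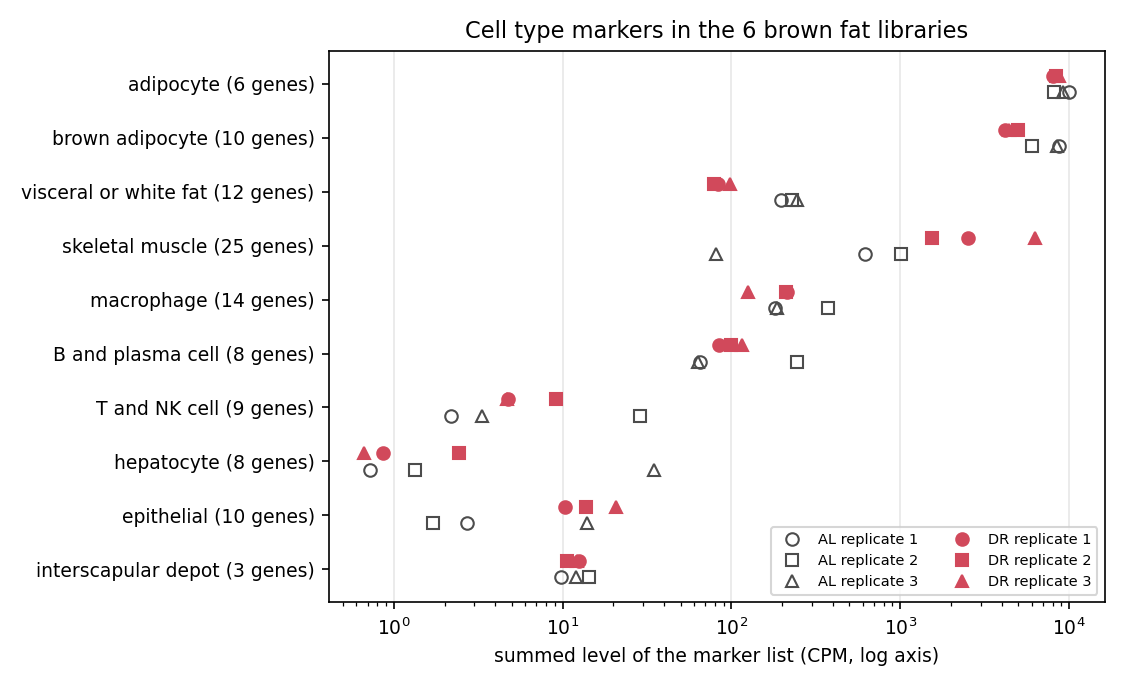
Summed CPM (log axis) of the marker lists named on the vertical axis, 1 symbol per library, with AL open and DR filled. Muscle markers were higher in every DR library (1534 to 6258 CPM) than in any AL library (81.1 to 1014 CPM), AL replicate 2 lies high for lymphocyte markers, and AL replicate 3 lies high for hepatocyte markers.

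Expression differed between DR and AL in 1594 of 13845 genes (11.5%) at an edgeR adjusted p under 0.05. The 830 genes that rose make up 5.99% and the 764 that fell make up 5.52%, and these shares are the background for each gene list below. Most changes were modest, with a median absolute log2 fold change of 0.62. Changes of at least 1 on the log2 scale were seen in 207 genes that rose and 177 that fell. The libraries of the groups did not overlap in 33% of all genes tested.

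The muscle score, the mean log2 CPM of the 25 muscle markers, was entered as a covariate in a second fit. It called 618 genes (4.46%; 2.65% higher and 1.81% lower). Of these, 597 (4.31%) were also called without it in the same direction, 2.56% of all genes as higher and 1.75% as lower. The count of 618 was itself unsteady: it was 174 without AL library 1, 409 without AL library 2, 404 without AL library 3, 185 without DR library 1, 297 without DR library 2, 429 without DR library 3 and 265 with separate scores for fast and slow fibres. All 1594 genes kept their sign, their estimates had a median of 0.94 times the first estimate, and their standard errors a median of 1.15 times the first. In that fit 234 genes (1.69%) moved with the muscle score, 232 (1.68%) upwards and 2 (0.0144%) downwards. For the 232 genes the median log2 fold change between DR and AL was 2.35 without the score and −0.09 with it. These genes were chosen by their slope in that same fit and include all 25 markers of the score. The drop is therefore largely built into the choice. Among those 232 genes 6 had been called changed, the calcium channel subunit Cacnb1, the kinase Wnk2, Pacsin3 and the muscle filament gene Synm as higher, and 2 as lower, among them the proteoglycan Gpc1. None of the 4 higher ones was called with the score (edgeR adjusted p = 0.0584 to 0.249), whereas Gpc1 was (0.001).

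**Figure D2:**
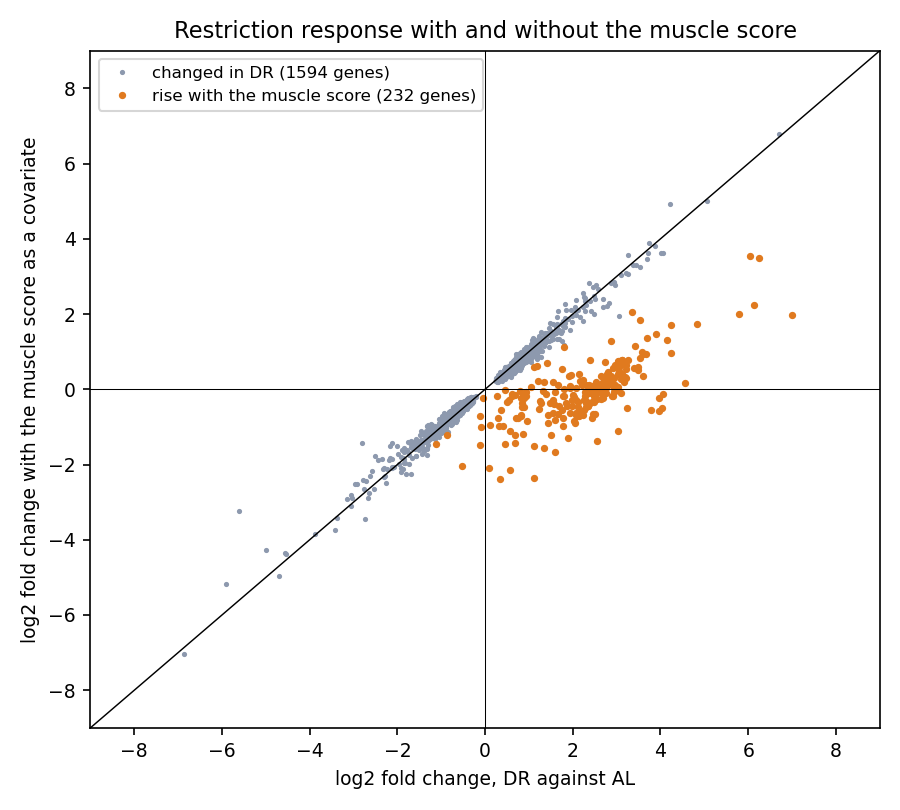
Log2 fold change of DR against AL without (horizontal) and with (vertical) the muscle score, 1 point per gene, with the line of equal values. The 1594 changed genes lie near the line, while the 232 genes that rise with the muscle score lie at a median of 2.35 on the horizontal axis and −0.09 on the vertical. The 232 genes were chosen by the fit with the score and include its own markers.

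Without 1 library at a time, 687 to 1655 genes were called in place of 1594, fewest without AL library 3 and most without AL library 2. The count was 778 without AL library 1, 708 without DR library 1, 1042 without DR library 2 and 957 without DR library 3. All 1594 genes kept their direction in each of these 6 fits, and 490 of them (299 higher and 191 lower) were called in all 6. Of the 490, 454 were also called with the muscle score.

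Ucp1 and Dio2, both central to heat production, were lower in DR. Ucp1 (ENSMUSG00000031710), the proton channel, was at 4741, 3154 and 4772 CPM in AL and at 937, 1928 and 1280.4 CPM in DR, so that the highest DR library lay below the lowest AL library. It fell by 1.61 ± 0.33 (SE) on the log2 scale (edgeR adjusted p = 0.005), and by 1.45 with the muscle score (0.0322). Dio2 (ENSMUSG00000007682) was at 87, 30.5 and 58.9 CPM in AL and at 3.87, 16.9 and 8.78 CPM in DR. The groups again did not overlap, and both were widely spread, with AL library 2 the lowest of the AL libraries. Dio2 fell by 2.66 ± 0.58 on the log2 scale (edgeR adjusted p = 0.00794), and its adjusted p ran from 0.000401 to 0.0492 over the 13 alternative fits.

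Among receptors that raise cAMP, Adrb3 and Tshr were lower in DR. Adrb3 (ENSMUSG00000031489), the beta-3 adrenergic receptor of adipocytes, was at 399, 269 and 246.5 CPM in AL and at 115, 135 and 175 CPM in DR, with every DR library below every AL library. Its log2 fold change was −1.11 ± 0.18 (edgeR adjusted p = 0.00125). The thyrotropin receptor Tshr (ENSMUSG00000020963), through which thyrotropin raises cAMP in fat cells, was at 33, 30.2 and 33.5 CPM in AL and at 5.73, 8.31 and 8.42 CPM in DR. This was the change with the smallest p-value of all genes, −2.12 ± 0.15 (edgeR adjusted p = 4.44e-07), and it was −2.1 with the muscle score. Adcy5, an adenylyl cyclase that makes cAMP, fell by 1.87 ± 0.34 on the log2 scale (edgeR adjusted p = 0.00277).

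The list of 25 thermogenic and brown identity genes, all tested, had 2 members that rose and 6 that fell. Besides Ucp1, Dio2 and Adrb3, the fallers were S100b, a calcium-binding protein that guides sympathetic innervation of brown fat, the proton channel Otop1 and the mitochondrial protein gene Letmd1. S100b went from 188, 101 and 176 CPM in AL to 50.8, 51.3 and 44.1 CPM in DR (log2 fold change −1.67 ± 0.28, edgeR adjusted p = 0.00152). Those that rose were Nrg4, a hormone secreted by brown fat, by 0.74 on the log2 scale (edgeR adjusted p = 0.00994), and the potassium channel Kcnk3 by 0.4 (0.0353). With the muscle score the calls were 1 higher (Nrg4) and 4 lower (Ucp1, Dio2, Adrb3 and S100b), and 0 higher and 4 lower without AL library 3. They were 1 higher and 4 lower without AL library 1 or DR library 1, and 1 higher and 7 lower without AL library 2. The list's median log2 fold change was −0.24, beside −0.007 over all genes tested. Several identity genes gave no call. Cidea, a lipid droplet protein abundant in brown adipocytes, was at 2380, 1691 and 2288 CPM in AL and at 2074, 2063 and 1957 CPM in DR, and the coactivator Ppargc1a was at 58.4, 58.4 and 62.4 CPM in AL and at 43.1, 70.2 and 71.2 CPM in DR. Their log2 differences, −0.06 ± 0.12 and 0.04 ± 0.25, had edgeR adjusted p-values of 0.795 and 0.944. Elovl3, which elongates fatty acids, ranged from 11 CPM (AL library 2) to 116 CPM in AL and from 5.52 to 18.2 CPM in DR. Its groups overlapped and its adjusted p was 0.0507, or 0.0171 without AL library 2.

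Among 31 tested genes of adrenergic and cAMP signalling 3 rose, among them Adcy9 and Prkacb, and 3 fell (Adrb3, Adcy5 and Gnas). Adcy9 and Prkacb were not called with the muscle score, while Adrb3 and Adcy5 among the fallers were. The calls were 0 higher and 2 lower without DR library 1, and 1 higher and 2 lower without AL library 1 or AL library 3. In the thyroid list 0 of 11 rose and 2 fell, Tshr and Dio2. The thyroid hormone receptors Thra and Thrb had log2 fold changes of −0.03 and 0.11, neither called.

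The cAMP response element, TGACGTCA (a palindrome, the same on both strands), is bound by CREB, which cAMP activates. It was searched in the 250 bases before the start of RefSeq genes (GRCm38.p6), where 1.77% of 27025 genes hold it. Of the 25 thermogenic genes 17 had a promoter in that table and 1 held the motif, Dio2, the gene of this list with the largest fall. The window is shown because that element lies 95 to 88 bases before the start site, in the region upstream of the first exon, at chr12:90739096-90739163 on the minus strand, with the motif in capitals.
Dio2: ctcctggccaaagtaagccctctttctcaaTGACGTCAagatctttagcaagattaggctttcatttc
The match is a description of the letters, and binding was not measured.

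**Figure D3:**
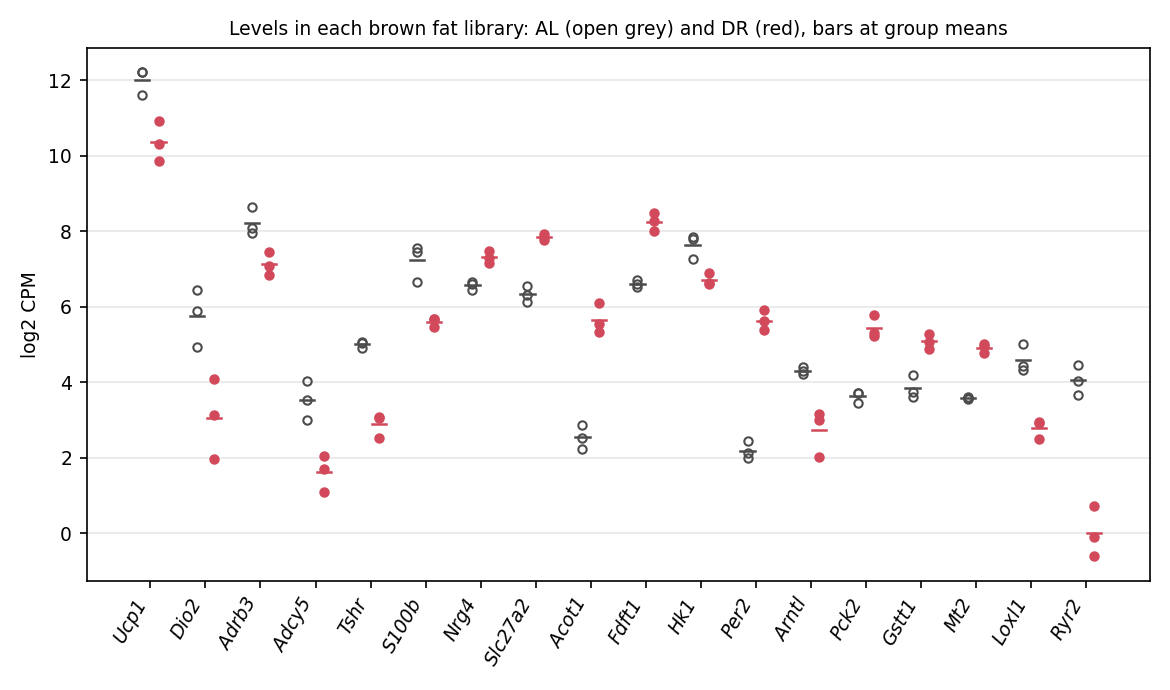
Log2 CPM of 18 genes in each library, AL open and DR filled, with a bar at the mean of the log2 values of each group. In all 18 genes shown the groups do not overlap; Ucp1, Dio2, Adrb3, Tshr, S100b, Adcy5, Hk1, Arntl, Loxl1 and Ryr2 lie lower in DR and the others higher.

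Single genes of fatty acid uptake and oxidation rose, while most members of these lists, and of fatty acid synthesis, were not called. Slc27a2, a fatty acid transporter and very-long-chain acyl-CoA synthetase, was at 69.8, 93.1 and 79.4 CPM in AL and at 244, 232 and 217 CPM in DR. It rose by 1.52 ± 0.21 on the log2 scale (edgeR adjusted p = 0.000556), and each DR library exceeded the highest AL library by more than the whole spread within AL. Slc27a1, a fatty acid transporter of the same family, rose by 1.25 ± 0.17 (edgeR adjusted p = 0.000307). Acot1, which splits acyl-CoA into fatty acid and coenzyme A, was at 4.69, 7.3 and 5.71 CPM in AL and at 39.9, 68.1 and 46.3 CPM in DR, a log2 fold change of 3.1 ± 0.64 (edgeR adjusted p = 0.0059). It belongs to a cluster of near-identical genes, so its share of the reads is uncertain. Ehhadh, an enzyme of peroxisomal beta-oxidation, rose by 1.4 ± 0.32 (edgeR adjusted p = 0.0101).

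Of 32 genes of fatty acid oxidation 4 rose and 1 fell. Among the risers were Acot1, Ehhadh and Etfb, and the faller was Etfdh, which passes electrons from Etfb and its partner into the respiratory chain. Acot1 and Ehhadh were also called with the muscle score. Without AL library 2, 3 of these genes were called higher and 6 lower, and without AL library 1 or AL library 3, 2 were called higher and 0 lower. In the list for lipolysis, droplets and uptake 3 of 35 rose (Slc27a1, Slc27a2 and the lipase inhibitor Angptl4) and 4 fell. The fallers were Fabp3, an intracellular fatty acid carrier that muscle also expresses, the lipase inhibitor Angptl8, the droplet coat gene Plin3 and the monoglyceride lipase Mgll. Fabp3 went from 782, 589 and 774 CPM in AL to 394, 289 and 381 CPM in DR, with a log2 fold change of −1.01 ± 0.26 (edgeR adjusted p = 0.0175), or −1.08 with the muscle score. Its edgeR adjusted p was 0.0653 without AL library 1, 0.0656 without AL library 3 and 0.0757 without DR library 2. For the whole list the calls were 2 higher and 0 lower without AL library 3, and 2 higher and 7 lower without AL library 2.

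Fatty acid and triglyceride synthesis had 0 of 28 members higher and 1 lower, the acyltransferase Agpat3, which was not called with the muscle score (edgeR adjusted p = 0.0606). Fasn, fatty acid synthase, was at 34743, 13255 and 22754 CPM in AL and at 24520 (24519.6), 28325 and 20395 CPM in DR. The groups overlapped fully, the log2 fold change was 0.05 ± 0.33 (edgeR adjusted p = 0.946), and its sign was negative without AL library 2 or without DR library 2. Acly, which supplies acetyl-CoA, was at 4951, 1520.2 and 3040.2 CPM in AL and at 2626, 3260 (3259.7) and 1587 CPM in DR, also without a call (log2 fold change −0.35 ± 0.52). AL library 2 was the lowest of all 6 for both genes.

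Cholesterol synthesis had 1 of 23 members higher and 6 lower. Fdft1, squalene synthase, rose from 104, 91.7 and 97.5 CPM to 355, 255.5 and 307.5 CPM (log2 fold change 1.65 ± 0.23, edgeR adjusted p = 0.000563). Its direction was opposite to that of the 6 that fell, among them Hmgcs1, the regulator Srebf2, Msmo1 and Sc5d. Hmgcs1, the first committed enzyme, fell by 0.8 ± 0.16 on the log2 scale (edgeR adjusted p = 0.00581), and Srebf2 fell by 0.49 ± 0.12 (0.014). With the muscle score only Fdft1 and Hmgcs1 were still called, and without AL library 1, DR library 1 or DR library 3 the calls were also 1 higher and 1 lower. They were 1 higher and 2 lower without AL library 3. Abcd2, a peroxisomal carrier of very-long-chain acyl-CoA named by the size rule, fell by 1.23 ± 0.19 (edgeR adjusted p = 0.00103).

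Among genes of glucose use, a hexokinase, a phosphofructokinase and a lactate transporter were lower, and most of the list was not called. Hk1, a hexokinase, went from 220, 154 and 229 CPM in AL to 118, 99.1 and 96.6 CPM in DR, without overlap (log2 fold change −0.94 ± 0.18, edgeR adjusted p = 0.00341). Pfkp, a phosphofructokinase, fell by 1.34 ± 0.27 (0.00532), and Slc16a1, a lactate and pyruvate transporter, by 0.66 ± 0.15 (0.00837). These 3 were also called with the muscle score. In all 2 of 30 tested members rose (the kinase Pdk2, which restrains pyruvate oxidation, and Aldoc) and 4 fell, the last being Pfkfb1. The 2 risers were not called with the muscle score or in 5 of the 6 fits without 1 library, the exception being the fit without AL library 1, and 2 to 6 members were called lower in these 6 fits, 2 without DR library 1 and 6 without AL library 2. The glucose transporter Slc2a4 had a log2 fold change of −0.3 without a call. Glycogen synthase Gys2 fell by 2.18 ± 0.5 on the log2 scale (edgeR adjusted p = 0.0101), with an adjusted p of 0.0587 with the muscle score.

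Of 80 nuclear genes of the respiratory chain and ATP synthase 0 were called in either direction. Their median log2 fold change was −0.05 and the lowest was −0.82, of Cox8b, a subunit typical of brown fat and muscle that was at 494, 371 and 444 CPM in AL and at 306, 184 and 248.5 CPM in DR (edgeR adjusted p = 0.0916). The highest was 2.59, also without a call, and 1 of the 80 genes rose with the muscle score. Alternatives called at most 2 of the 80, all lower. The citrate cycle had 0 of 21 higher and 1 lower, Sucla2, which was not called with the muscle score or in 4 of the 6 fits without 1 library (AL library 1 or 3, DR library 1 or 2). In the mitochondrial dynamics and turnover list 4 of 34 rose, among them the mitophagy receptors Bnip3 and Bnip3l and the fusion gene Mfn1, by 0.31 to 0.53 on the log2 scale, and 1 fell, Gabpa, a transcription factor of mitochondrial genes (log2 fold change −0.81 ± 0.18, edgeR adjusted p = 0.00784). Bnip3l and Gabpa were also called with the muscle score, and without DR library 1 or DR library 3 the calls were 1 higher and 1 lower.

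Pck2 (ENSMUSG00000040618), the mitochondrial form of the enzyme that makes phosphoenolpyruvate, had the smallest p-value among the genes that rose. It stood at 11, 13.1 and 13.1 CPM in AL and at 55.1, 37.3 and 39.7 CPM in DR, with a log2 fold change of 1.83 ± 0.17 (edgeR adjusted p = 1.18e-05) and of 1.75 with the muscle score. The list of the amino acid stress response, of which Pck2 is a target, did not move as a whole: 3 of 38 rose (Pck2, Asns and Ddit4) and 4 fell (Atf4, Atf5 and the tRNA synthetases Aars and Wars). Atf4, the list's main transcription factor, went from 105, 69.9 and 78.5 CPM to 49.6, 59.2 and 68 CPM (log2 fold change −0.52 ± 0.15, edgeR adjusted p = 0.0352), opposite to Pck2. Only Pck2 and Atf4 were also called with the muscle score, and without AL library 3 or DR library 1 the calls were 1 higher and 0 lower. Branched-chain amino acid breakdown had 1 of 23 higher (Hsd17b10) and 3 lower (Pcca, Mut and Mccc2), of which only Pcca was also called with the muscle score, with Pcca, a subunit of propionyl-CoA carboxylase, falling by 0.8 ± 0.16 (edgeR adjusted p = 0.00495). Without AL library 3 or DR library 1 the calls were 0 higher and 1 lower, and without AL library 2 they were 1 higher and 6 lower.

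The circadian clock is a feedback loop in which Arntl and Clock switch on Per and Cry genes, whose proteins then block them, and in which Nr1d1 lowers Arntl. Of 23 clock genes 5 rose, among them Per2, Usp2, Tef and Per3, and 4 fell (Nr1d1, Arntl, Clock and Bhlhe40). Per2 (ENSMUSG00000055866) stood at 4.33, 5.46 and 4 CPM in AL and at 41.4, 60 and 48.8 CPM in DR. Every DR library was several times higher than any AL library, and the log2 fold change was 3.43 ± 0.37 (edgeR adjusted p = 5.49e-05). Arntl went from 21, 18.5 and 19.5 CPM to 4.01, 8.96 and 8.05 CPM (log2 fold change −1.51 ± 0.39, edgeR adjusted p = 0.0186). Its adjusted p was 0.0655 with the muscle score and 0.0528 to 0.099 without AL library 1, AL library 3 or DR library 1. Nr1d1, a repressor of Arntl, was also lower, from 124, 133 and 141 CPM to 46.7, 27.7 and 56.4 CPM (log2 fold change −1.59 ± 0.34, edgeR adjusted p = 0.00638). All 5 risers, and Nr1d1 among the fallers, were also called with the muscle score. Without AL library 1 or AL library 3 the calls were 4 higher and 1 lower. The single sampling window lay just before the daily meal of the DR mice, so the level of a clock gene and its time of day, or the time since a meal, cannot be told apart.

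Clock factors bind short DNA elements, and 2 of the changed genes carried one near their start. The E-box CACGTG, a palindrome bound by the Arntl and Clock pair, lies in the 250 bases before the start of 6.86% of 27025 genes and of 5 of the 18 clock genes found in the table, namely Bhlhe41, Ciart, Cry1, Per1 and Tef. The D-box TTATGTAA, searched on both strands and bound by Tef and its relatives, lies before 0.977% of genes and 1 of the 18, Per3. The element TAGGTCA, searched on both strands and bound by Nr1d1, lies before 2.55% of genes and 1 of the 18, Nfil3. The windows of Tef and Per3 are shown because both genes rose and the product of the former binds the element of the latter. They lie upstream of the first exon at chr15:81802516-81802581 (plus strand) and at chr4:151044833-151044900 (minus strand) in GRCm38.p6, with the E-box of Tef and the D-box of Per3 in capitals.
Tef: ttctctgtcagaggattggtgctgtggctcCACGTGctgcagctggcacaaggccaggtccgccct
Per3: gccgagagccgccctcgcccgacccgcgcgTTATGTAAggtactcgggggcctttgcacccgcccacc
Tef went from 85.9, 109 and 103 CPM in AL to 188, 185 and 196 CPM in DR, and Per3 from 27.9, 43.1 and 32.5 CPM to 103, 84.7 and 80.2 CPM. The other 4 genes with an E-box there were not called. These matches describe the letters of the windows, and binding was not measured.

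Antioxidant and glutathione genes had more members called higher than any other list: 12 of 35 rose and 1 fell. The risers were the glutathione transferases Gstt1, Gstm1, Gstm2 and Gsta3, both subunits of the enzyme that starts glutathione synthesis (Gclc and Gclm), the metal-binding metallothioneins Mt1 and Mt2, Txnip, Gpx3, Prdx2 and the transcription factor Nfe2l2. Gstt1 went from 12.3, 18.4 and 13.2 CPM to 38.9, 33.7 and 29.6 CPM (log2 fold change 1.22 ± 0.18, edgeR adjusted p = 0.000668). Mt2 was steady within each group, at 12.1, 12 and 11.7 CPM in AL and at 30.8, 27.5 and 32.4 CPM in DR (log2 fold change 1.35 ± 0.3, edgeR adjusted p = 0.00797). The one that fell was Sod3, the extracellular superoxide dismutase, by 0.7 ± 0.13 (edgeR adjusted p = 0.00277). Other risers were smaller, such as Gclm at 0.65 and Nfe2l2 at 0.28 on the log2 scale. The list's median log2 fold change was 0.18. With the muscle score 5 of the 12 risers were called (Gstt1, Mt1, Gclm, Txnip and Gstm2), and without 1 library at a time 5 to 9 members were called higher, 5 of them without AL library 3. The glutathione transferases belong to families of similar sequence, so reads may be shared among them. Gstt2, another of that family named by the size rule, rose by 1.16 ± 0.13 (edgeR adjusted p = 6.35e-05).

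The antioxidant response element is the site of Nfe2l2, searched on both strands by its core. It lies in the 250 bases before 2.8% of genes and before 2 of the 29 listed genes found in the table, Gsta3 and Txnrd1. The window of Gsta3 is shown as the only one before a gene that rose, at chr1:21240434-21240503 on the plus strand of GRCm38.p6, upstream of the first exon, with the element in capitals.
Gsta3: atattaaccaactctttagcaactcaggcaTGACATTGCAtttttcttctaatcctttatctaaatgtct
Gsta3 itself was at 3.97, 3.11 and 4.35 CPM in AL and at 10.3, 11.9 and 5.98 CPM in DR (log2 fold change 1.29 ± 0.38, edgeR adjusted p = 0.0371), and was not called with the muscle score (0.105).

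More extracellular matrix genes fell than rose, and 27 of 41 tested members were not called. In all 11 fell and 3 rose, and the list's median log2 fold change was −0.29. Loxl1, which cross-links elastic fibres, went from 21.7, 19.9 and 32.5 CPM in AL to 7.6, 7.66 and 5.61 CPM in DR (log2 fold change −1.85 ± 0.29, edgeR adjusted p = 0.00105). The other fallers were the collagens Col1a1, Col4a1, Col4a2, Col5a1, Col5a2, Col5a3 and Col15a1, the fibrillin Fbn1, the matrix protein Thbs2 and the protease Mmp19. Collagen changes lay between −0.9 (Col15a1) and −0.45 (Col4a1) on the log2 scale. Those that rose were the protease inhibitors Timp3 and Timp4 and the matrix protein Postn. Timp3 went from 176, 162 and 203 CPM to 326, 322 and 307 CPM (log2 fold change 0.82 ± 0.15, edgeR adjusted p = 0.00252). With the muscle score 7 of the fallers and 2 of the risers were called, and without AL library 3 the calls were 6 lower and 1 higher. Markers of fibroblasts and preadipocytes, summed over 9 genes, ranged from 298 to 419 CPM in AL and from 238 to 377 CPM in DR, and 1 of the 9 was called, Dpt, as lower. The part of these cells in the matrix result was not tested. Adamts5, a matrix protease named by the size rule, fell by 1.37 ± 0.2 (edgeR adjusted p = 0.000668).

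**Figure D4:**
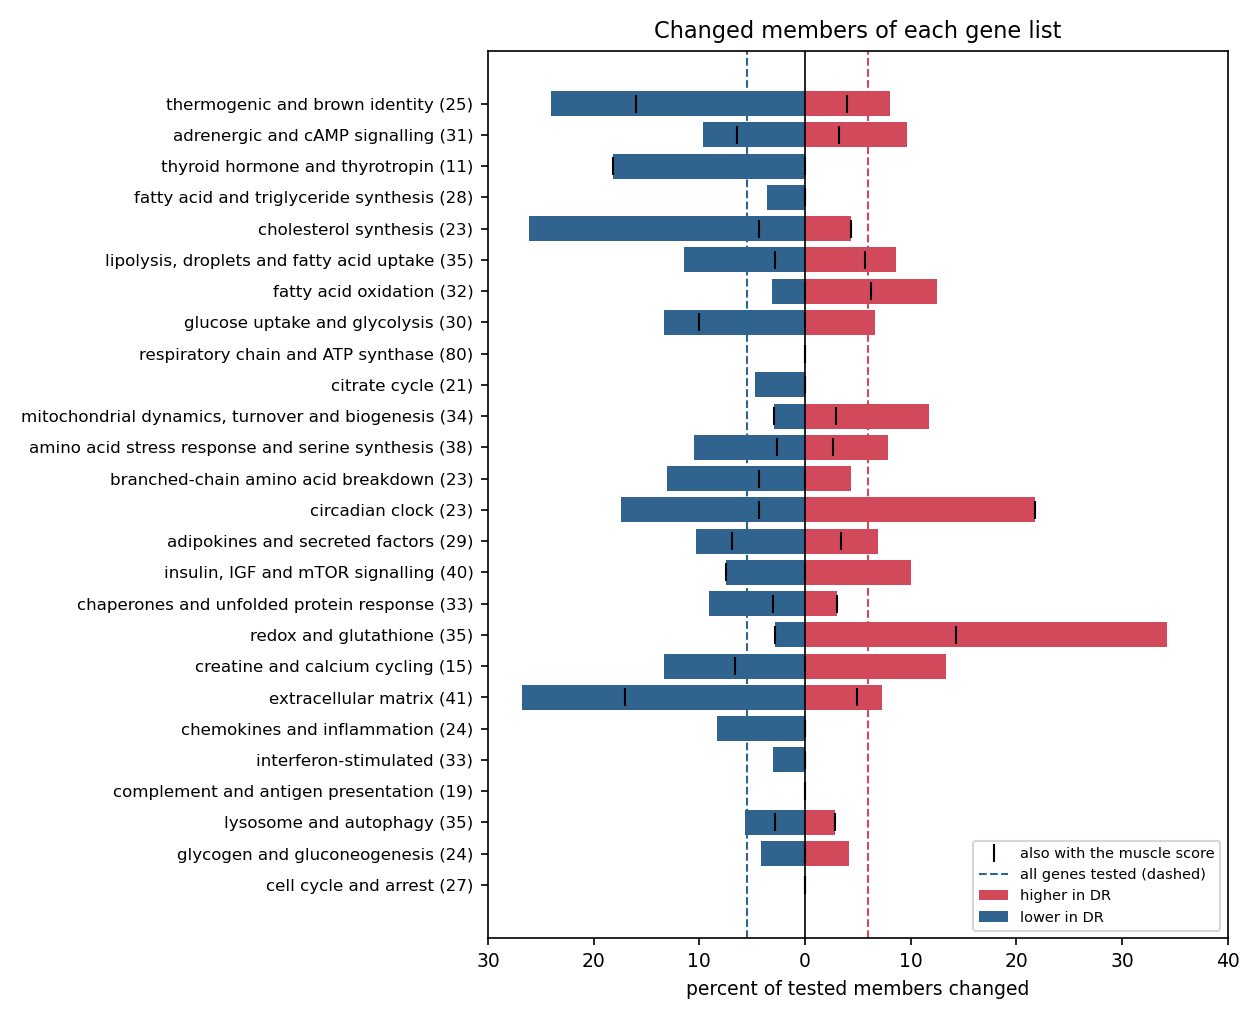
Percent of the tested members of each list (number in brackets) that fell (left) or rose (right) in DR, with dashed lines at the background of 5.52% lower and 5.99% higher over all genes and black ticks at the members also called with the muscle score. Redox genes reach furthest to the right, and matrix, cholesterol and thermogenic genes furthest to the left.

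Immune lists had negative medians but hardly any calls. The interferon-stimulated list had 0 of 33 higher and 1 lower (Ifit2), complement and antigen presentation 0 of 19 in either direction, and chemokines and inflammation 0 of 24 higher and 2 lower (Cxcl12 and Ccl7, the latter at no more than 3 counts in any DR library). Their median log2 fold changes were −0.55, −0.47 and −0.69. Macrophage markers summed to 183, 371 and 187 CPM in AL and to 215, 211 and 125 CPM in DR. AL library 2, which carried the lymphocyte markers, was thus also the highest for macrophages, and without it the medians were −0.11, 0.16 and −0.18, with 0 interferon genes called. With the muscle score none of Ifit2, Cxcl12 and Ccl7 was called (edgeR adjusted p = 0.063, 0.19 and 0.0605), and the chemokine list had 0 calls without DR library 1 or DR library 3. The cell cycle list had 0 of 27 calls.

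Secreted factors and their receptors changed gene by gene. Lep, the hormone leptin, went from 151, 140 (139.8) and 178 CPM to 30.7, 20.4 and 26.6 CPM (log2 fold change −2.58 ± 0.59, edgeR adjusted p = 0.0102), with an adjusted p of 0.0541 with the muscle score. Adipoq, adiponectin, was at 591, 730 (729.8) and 570 (569.6) CPM in AL and at 783, 746 and 869 CPM in DR, and did not pass the test (edgeR adjusted p = 0.0675). Fgf1, a growth factor of fat remodelling, fell by 1.31 ± 0.27 (edgeR adjusted p = 0.0062). In the insulin, IGF and mTOR list 4 of 40 rose (Irs1, Irs2, Igf2r and Ddit4) and 3 fell, the growth hormone receptor Ghr, Igf1 and Tbc1d4, which controls glucose transporter traffic. Only the 3 fallers were also called with the muscle score, and without DR library 1 the calls were 0 higher and 1 lower. Chaperones and the unfolded protein response had 1 of 33 higher, Herpud1, which serves protein disposal at the endoplasmic reticulum (log2 fold change 0.69 ± 0.09, edgeR adjusted p = 3e-04), and 3 lower (Manf, Hspb8 and Atf6). Of these 4 genes Herpud1 and Manf were also called with the muscle score, and without AL library 1, AL library 3 or DR library 1 the list had 1 higher and 1 lower. Lysosomal genes had 1 of 35 higher, the cholesterol exporter Npc1, and 2 lower, the protease Ctsz and the regulator Tfe3, of which Npc1 and Ctsz were also called with the muscle score.

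The list of creatine and calcium cycling had 2 of 15 members higher (the creatine transporter Slc6a8 and Pln) and 2 lower (Ryr2 and the phosphatase Alpl), and only Ryr2 was also called with the muscle score. Without AL library 1 or DR library 1 the calls were 0 higher and 1 lower. Ryr2, a calcium release channel, went from 21.7, 12.6 and 16.5 CPM in AL to 0.932, 0.652 and 1.65 CPM in DR (log2 fold change −3.87 ± 0.47, edgeR adjusted p = 0.000158). It was the largest fall among the 20 genes named for size and p-value. E2f2, a transcription factor of the cell cycle, went from 21.5, 17.9 and 25.2 CPM to 2.08, 3.26 and 3.05 CPM (log2 fold change −2.96 ± 0.43, edgeR adjusted p = 0.000668). The remaining fallers of that rule were Gramd4, Ehbp1l1, Med10, Pnldc1 and the synuclein Sncg, with log2 fold changes from −1.65 (Pnldc1) to −1.04 (Med10). The risers besides those above were Etfbkmt, a methyltransferase that acts on Etfb, the cation channel Trpm4, Sspo, the lipoprotein assembly gene Mttp, Tspan4, the glutamate receptor subunit Grik5 and Crip2, from 1.23 (Etfbkmt) to 2.52 (Sspo) on the log2 scale. Tspan4 rose from 22.3, 22.1 and 27.5 CPM to 152, 87 and 98 CPM. All 20 were called in each of the 13 alternative fits.

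Young mice restricted for 2 months (ALDR) and killed at 5 months were set beside their own fully fed controls, 3 libraries against 3, which share no library with the old groups. The titles spell this group ADRL. At 5 months 1997 genes (14.4%) were called, 7.2% higher and 7.22% lower. Both ages called 834 genes, and 832 of these had the same sign (neither count was recomputed with the muscle score or without single libraries), which is 52.2% of the list at 26 months and 41.7% of that at 5 months. The difference between the responses was called for 0 genes by edgeR, with 1133 at an unadjusted p under 0.05, and for 9 genes by DESeq2. In the young mice Ucp1 changed by −1.15 on the log2 scale (edgeR adjusted p = 0.0244), Dio2 by −2.73 (0.00364), Adrb3 by −0.69 (0.0149), Tshr by −1.38 (2.33e-05), Pck2 by 1.57 (2.85e-05) and Per2 by 1.76 (0.00233). Tests of the differences for these 6 genes gave edgeR adjusted p-values of 0.498 or more, that of Tshr being the smallest. Other genes described above were not called at 5 months, where Adcy5 changed by −0.04 (edgeR adjusted p = 0.961), Mt2 by 0.07 (0.911) and Igf1 by −0.1 (0.792). Their differences between the ages did not pass the test either (edgeR adjusted p = 0.486, 0.506 and 0.54). The 5 genes with the smallest p-values for the difference, among them Xrcc6, Tmem161a, Ttc28 and Trmt9b, had edgeR adjusted p-values of 0.115 to 0.185. Xrcc6, a DNA repair gene, changed by 0.11 on the log2 scale at 26 months and by 0.91 at 5 months.

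White adipose tissue (WAT) of the same diet groups at 26 months, 3 DR and 3 AL libraries, is labelled as paired-end total RNA where BAT is labelled as single-end polyadenylated RNA, so only changes within each depot were set side by side. In WAT 4114 of 15828 genes (26%) were called (13.5% higher and 12.5% lower), or 1966 with a muscle score in the fit. Of the 565 genes called in both depots 92 moved in opposite directions, 19 higher in BAT and lower in WAT and 73 the other way, and 9 of the 92 were also called with the muscle score in both depots. Adrb3, lower in BAT, rose in WAT from 98.4, 91 and 138 CPM to 309, 459.5 and 397 CPM (log2 fold change 1.83, edgeR adjusted p = 7.49e-05). Mt2, higher in BAT, fell in WAT from 11.8, 12.1 and 14.4 CPM to 5.51, 4.89 and 3.28 CPM (log2 fold change −1.48, edgeR adjusted p = 0.00901), and Timp4 fell by 1.51 (3.22e-05). Cdh9, a cell adhesion gene, changed by −2.3 in BAT and by 2.09 in WAT. Gpt2, an alanine aminotransferase, changed by −0.65 and 1.08. In the lists for synthesis and respiration, 23 of the 28 genes of fatty acid and triglyceride synthesis and 69 of the 80 respiratory genes were called higher in WAT, against 0 and 0 in BAT. In WAT 11 of the 25 muscle markers were also called higher in DR, and with the muscle score 21 of the 28, 52 of the 80 and 0 of the 25 were. The 25 markers make up that score, so their 0 follows from the fit. Of 14 macrophage markers 13 were called lower and 1 higher in WAT (13 and 0 with the muscle score), against 1 lower in BAT. The part of such cells in the WAT counts was not tested. The difference between depots was not tested, because depot and labelled library type cannot be told apart.

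**Figure D5:**
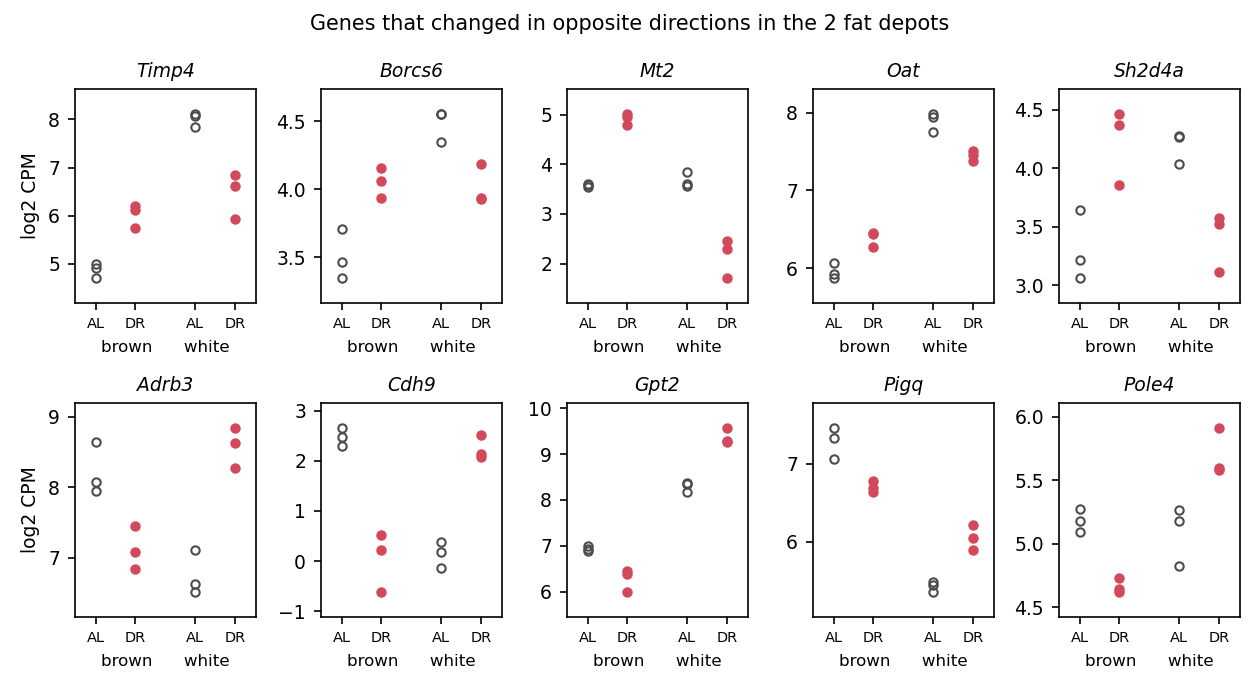
Log2 CPM in each library of brown and white fat for 10 genes that changed in opposite directions, AL open and DR filled, each panel with its own scale. The top row holds genes higher in DR in brown fat and lower in white fat, the bottom row the reverse, and within each depot the groups do not overlap. Lack of overlap in brown fat was a rule for choosing these genes.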

How the data were processed

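The authors deposited 1 table of read counts per gene for each tissue, whole numbers that had not been normalized, per the labels and the values. The submitters' processing notes name Trim Galore 0.3.7, TopHat2 2.0.14, DESeq2 and GRCm38 without roles. The counting program, annotation and strand setting are not given in the sources used here, so reads of overlapping or similar genes may be shared. Symbols were matched to 25012 of 25913 Ensembl identifiers.

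All 20 BAT libraries (6 groups) entered 1 fit with edgeR 4.0.16 in R 4.3.3: filterByExpr, TMM scaling, the quasi-likelihood test and Benjamini-Hochberg adjustment over 13845 genes, with changed meaning an adjusted p under 0.05. SE is the log2 fold change divided by the root of F. The muscle score is the mean log2 CPM (prior count 2) of 25 markers. On counts simulated for this comparison over 13701 genes, 64.6% of genes changed by 1 and 82% of those changed by 2 on the log2 scale were recovered, with 2 unchanged genes called. With the muscle score these shares were 61.6% and 75%, with 6 unchanged genes called. The simulation did not set single AL libraries apart by immune or liver transcripts as in the data. Replicates of a group differed by at least 10.1 times sampling noise (chi-square per degree of freedom), so each counts as 1. Same-numbered DR and AL libraries did not deviate together, and the fit has no replicate block.

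Named genes were, by p-value, the first 10 in each direction among changed genes without overlap whose log2 fold change was at or beyond 1 in size, up to 4 per list, a fixed set of 19 anchor genes, up to 5 per direction with opposite changes in WAT, and 5 for the difference between ages. The genes with opposite changes in WAT also had to show no overlap between the groups in BAT. Other list members called changed and the motif windows were named after their values were seen. The members and lists were chosen with earlier results of these data known. Some genes that meet these rules are not reported here. Promoters are from RefSeq (GRCm38.p6). Alternatives were DESeq2 1.42.0, other size factors, no filter, only these groups, a replicate block, muscle and epithelial scores, and leaving out each library; counts of list members under all of them were added after seeing the data.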

Additional observations from a re-analysis of the deposited data

Results flagged for a closer look

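The following genes changed in opposite directions in brown and white fat, with every DR library on one side of every AL library in brown fat and on the other side in white fat. The difference itself was not tested. Lack of overlap in brown fat was a rule for picking these genes, and lack of overlap in white fat a rule for listing them here. Neither is therefore a result. Higher in brown fat and lower in white fat were Timp4 (log2 fold change 1.15 in brown fat and −1.51 in white fat), Borcs6 (0.54 and −0.47), Mt2 (1.35 and −1.48), Oat (0.43 and −0.46) and Sh2d4a (0.94 and −0.78). Lower in brown fat and higher in white fat were Adrb3 (−1.11 and 1.83), Cdh9 (−2.3 and 2.09), Gpt2 (−0.65 and 1.08), Pigq (−0.59 and 0.63) and Pole4 (−0.52 and 0.6). With a muscle score in the fits of both depots, Timp4, Adrb3, Cdh9, Gpt2, Pigq and Pole4 were called in both, while Borcs6, Mt2, Oat and Sh2d4a were not called in brown fat.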

How the results depend on the processing

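Of 101 named genes called changed, all kept their sign under the 13 alternatives and 58 were called under each. The count of 1594 changed genes became 618 with the muscle score and 701 with muscle and epithelial scores, and 687 to 1655 without 1 library. With the muscle score in the fit, 618 genes became 265 with separate fast and slow fibre scores and 174 to 429 without 1 library. The 234 genes that move with the muscle score became 179 with Ckm alone. The difference between ages, at 0 genes, gave 9 with DESeq2, 1 with the muscle score, 1 with muscle and epithelial scores, and 0 to 1 without 1 library. In white fat 4114 genes became 1966 with the muscle score. As a replicate block the shared numbers gave 2014 genes in place of 1594, and the block with the muscle score gave 811 in place of 618. Deviations of same-numbered libraries correlated at −0.15 to −0.08. With 3 libraries a group, each centred on the group mean, this check cannot decide whether the numbers mark a shared batch. Signs reversed only for uncalled genes: Ppargc1a (−0.053 with the muscle score, −0.11 with both scores, −0.06 without DR replicate 2, −0.086 to 0.244 over fits without 1 library), Acta1 (−0.061 and −0.043 with these scores), Acly (0.031 and 0.18 with them, −0.683 to 0.13 without 1 library), Fasn (−0.24 to 0.439 without 1 library, negative without AL replicate 2 or DR replicate 2) and Cidea (−0.201 to 0.03 without 1 library, positive without AL replicate 1). The cause of these shifts was not tested, apart from the lower number of libraries when 1 is left out.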

Other observations

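Some key genes were also read in the other brown fat groups, as values with no comparison made. Mice moved from full feeding to restriction at 24 months (ALDR, 5 libraries) had Ucp1 at 2775 to 5950 (5949.6) CPM with a median of 3375, and mice moved from restriction to full feeding (DRAL, 3 libraries) had 2717 to 4462 CPM, beside 937 to 1928 CPM in lifelong DR. Adrb3 was at 229.5 to 264 CPM in ALDR and 239 to 290 (289.8) CPM in DRAL. Pck2 was at 13.3 to 19.9 CPM in ALDR and 13.1 to 14.3 CPM in DRAL, beside 37.3 to 55.1 CPM in lifelong DR. Per2 was at 21.1 to 48.1 CPM in ALDR and 7.17 to 19.7 CPM in DRAL, beside 41.4 to 60 CPM in lifelong DR. Slc27a2 was at 122 to 213 CPM in ALDR and 51.9 to 85.9 CPM in DRAL, beside 217 to 244 CPM in lifelong DR. Ryr2 was at 6.78 to 13.6 CPM in ALDR and 1.77 to 4.85 CPM in DRAL. It was at 0.652 to 1.65 CPM in lifelong DR and 12.6 to 21.7 CPM in AL.

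Among genes outside the lists, chosen after their values were seen, Acot3, a neighbour of Acot1 in sequence, was at 0.0902, 0.508 and 0.177 CPM in AL and at 9.53, 12.9 and 5.67 CPM in DR. Hepacam had no count in any AL library and 1.08, 0.978 and 0.61 CPM in DR, and Akr1cl was at 0.812, 1.21 and 0.882 CPM in AL with no count in any DR library. Albumin was called lower in DR, yet AL library 3 alone held 22.8 CPM against at most 0.952 CPM in each other library.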
